A study of Mus musculus with 2 samples.

Results

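The dystrophin complex holds the muscle fibre membrane between the actin cytoskeleton inside the cell and the laminin-rich matrix outside it. Dystrophin binds actin and β-dystroglycan, the sarcoglycans and sarcospan stabilise dystroglycan in the membrane, and syntrophins and dystrobrevins dock signalling proteins such as neuronal nitric oxide synthase on the inner face. α-Dystroglycan binds laminin through a long sugar chain that starts from an O-linked mannose, and loss of many of these proteins or of the enzymes that build the chain causes muscular dystrophy in humans. The genes described here are 27 genes of this complex and of dystroglycan glycosylation, chosen by symbol as complex components, glycan enzymes, mannose donor enzymes and the anoctamin gene Ano5. All 27 were found among the 34745 genes of the table, and all 27 had at least 20 counts summed over both libraries, the minimum for a gene to be compared; 12662 genes in all met it.

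RNA of whole gastrocnemius muscle was sequenced from 8-week-old C57BL/6 mice in 1 library of CIPC-scko muscle (scKO below) and 1 library of CIPC-flox/flox muscle (flox/flox below). The product of Cipc restrains CLOCK and BMAL1, the transcription factors of the circadian clock. By the series title scKO stands for a deletion in satellite cells, from which muscle regenerates, and flox/flox mice carry the Cipc alleles flanked by loxP sites. The promoter that drives Cre, the sex and number of animals, and any pooling are not given in the labels. The title concerns mdx mice, whose dystrophin gene carries a nonsense mutation, but no label of these libraries names mdx. Gene counts do not show a point mutation, and whether these muscles were dystrophic was not tested.

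The libraries held 13842100 counts (scKO) and 14727219 counts (flox/flox), so that 1 count corresponded to 0.0713 CPM in scKO and 0.0688 CPM in flox/flox; CPM are counts relative to the library size as scaled by the TMM method. Cipc itself had 111 counts in scKO and 658 in flox/flox, 5.72-fold lower in scKO. These are counts of whole muscle, and in which cells Cipc RNA was lower was not tested. All 11 markers of muscle fibres had at least 21445 counts in scKO and 22278 in flox/flox. By the rule of 1.2-fold given below, Myh1 was higher (log2 ratio 0.27) and Myh7 and Tnnt3 were lower (−0.27 and −0.28); 10 of the 11 log2 ratios lay below 0, with a median of −0.084, and their part in the results below was not tested. Of 6 markers of regenerating fibres, Mymx had 1 and 0 counts in scKO and flox/flox, and the 6 together summed to 17.4 CPM in scKO and 18.7 CPM in flox/flox. Of the 4 tested, Myog was lower, with 35 counts in scKO and 82 in flox/flox (log2 ratio −1.17). Satellite cell markers summed to 27.7 CPM in scKO and 25.9 CPM in flox/flox, with 1 of 6 lower, Pax7 at 39 counts in scKO and 69 in flox/flox. Fibro-adipogenic markers, which label the mesenchymal cells of muscle, summed to 445 CPM in scKO and 549 CPM in flox/flox, with 4 of 7 lower. Endothelial markers summed to 264 CPM in scKO and 228 CPM in flox/flox, with 2 of 7 higher. Macrophage markers summed to 44.3 CPM in scKO and 42.9 CPM in flox/flox, with 0 of 6 higher and 0 lower. In RNA of a whole muscle, fewer cells of a type and less RNA per cell cannot be told apart. With 1 library per genotype no difference below has a replicate check, and no p-value was computed: the values compare these libraries, not the genotypes. Ratios are scKO over flox/flox on the log2 scale. Brackets give their 95% Clopper-Pearson intervals, which cover counting error only.

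Transcripts of dystroglycan and neuronal nitric oxide synthase were higher in the scKO library, while those of dystrophin, utrophin and α- and β-sarcoglycan did not differ beyond counting error. A gene was counted as higher or lower where its scaled counts were at least 1.2-fold apart and the interval excluded 0. By that rule 4 of the 27 genes were higher in scKO (Sntb1, Nos1, Dag1 and Sgcd), 2 were lower (Dtnb and Sgce) and 21 were neither. The 4 higher genes are 14.8% of the 27, against 8.55% of all 12662 tested genes, and the 2 lower genes are 7.41%, against 8.70%. These shares lie near the background and are not read as a result about the set, so the values below are those of single genes. With scaling by total counts the split was 4 higher and 0 lower among the 27, and 1354 higher and 898 lower among all genes in place of 1083 and 1102. The median log2 ratio was 0.023 over the 27 genes and 0.0021 over all tested genes. At 1.5-fold, Sntb1 and Nos1 were higher and Dtnb was lower, while 3.47% of all tested genes were higher and 4.12% lower. At 2-fold 0 of the 27 were higher and 0 lower, against 1.49% and 1.91% of all tested genes.

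**Figure D1:**
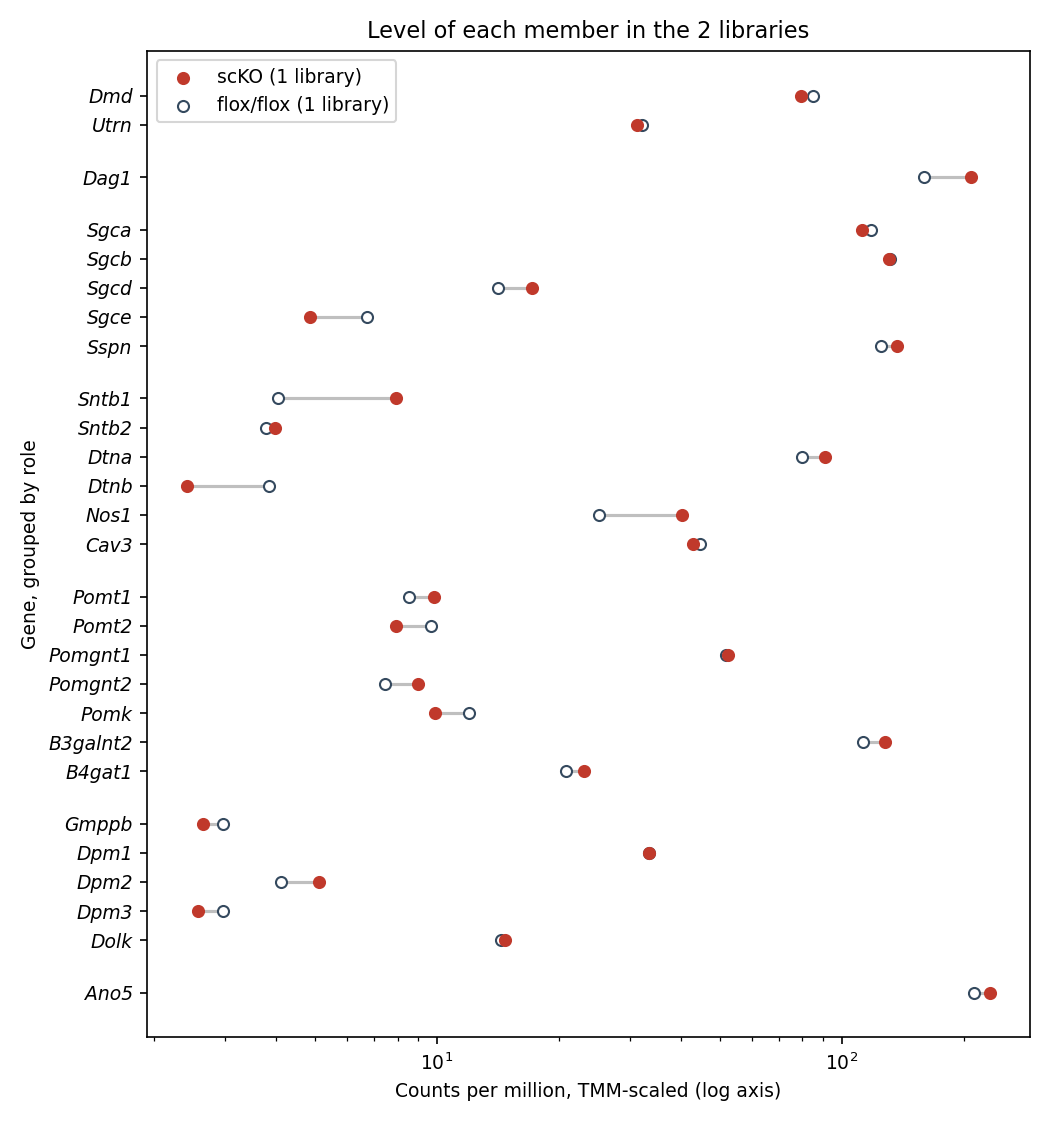
Level of each of the 27 genes in CPM (TMM-scaled, log axis), grouped by role, in the scKO library (filled points) and the flox/flox library (open points), with a grey line between them. Most pairs of points nearly touch; those of Sntb1, Nos1, Dag1, Dtnb and Sgce lie visibly apart.

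Dystrophin and its paralog did not differ beyond counting error. Dmd, the dystrophin gene (ENSMUSG00000045103, chromosome X, 82948870 to 85206141 on the plus strand, GRCm38), had 1112 counts in scKO and 1235 in flox/flox. These are 79.3 and 85.0 CPM, with a log2 ratio of −0.10 (−0.22 to 0.02). The gene spans 2257272 bases and has internal promoters that give shorter products, and counts over the whole gene do not show which product the reads came from. Utrn encodes utrophin, which stands in for dystrophin at the neuromuscular junction and in immature or dystrophin-deficient fibres. It had 437 counts in scKO and 466 in flox/flox, a log2 ratio of −0.04 (−0.23 to 0.15). The balance between both genes did not differ beyond counting error either: the ratio of Dmd to Utrn in scKO relative to that in flox/flox was −0.06 on the log2 scale (−0.28 to 0.17). This comparison within a pair does not depend on how the libraries are scaled.

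Dystroglycan RNA was higher in the scKO library. Dag1 encodes the precursor that is cut into α- and β-dystroglycan (ENSMUSG00000039952, chromosome 9, 108204634 to 108263958, minus strand). It had 2926 counts in scKO and 2328 in flox/flox, or 209 and 160 CPM. It was thus 30.2% higher (0.38, 0.30 to 0.46). It was among the best counted of the 27 genes, and of the 2626 tested genes with 1000 to 10000 summed counts 197 were higher by the same rule.

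The promoter of Dag1 is shown because Dag1 had the most counts of the 6 genes counted as higher or lower. RefSeq gives Dag1 a pair of starts 143 bases apart, and the outer one is shown. The 250 bases before it (GRCm38.p6, chr9:108263959-108264208, minus strand) are GC-rich, at 67.6% G or C. They hold 3 matches to the GC box that Sp transcription factors bind (GGGCGG or its reverse complement CCGCCC, in capitals), which begin 87, 54 and 11 bases before that start.
Dag1 upstream: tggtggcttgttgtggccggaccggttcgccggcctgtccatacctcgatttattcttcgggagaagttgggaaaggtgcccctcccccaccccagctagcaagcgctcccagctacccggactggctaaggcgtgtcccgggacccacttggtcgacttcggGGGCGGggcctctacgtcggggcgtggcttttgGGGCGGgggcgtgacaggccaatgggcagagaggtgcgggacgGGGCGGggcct
Such matches are common: 64.5% of 9385 tested protein-coding genes with a RefSeq promoter hold one in this window, against 45.0% of the 20 genes of the complex and its glycosylation that have an entry.

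The sarcoglycans of the muscle fibre split into well-counted genes that did not differ beyond counting error and less abundant ones that did. Sgca, the α-sarcoglycan gene, had 1577 counts in scKO and 1712 in flox/flox, with a log2 ratio of −0.07 (−0.17 to 0.03). Sgcb, for β-sarcoglycan, had 1833 counts in scKO and 1923 in flox/flox, −0.02 (−0.11 to 0.08). Neither ratio differed from 0 beyond counting error. Sgcd, for δ-sarcoglycan (ENSMUSG00000020354), had 241 counts in scKO and 206 in flox/flox, 1.21-fold higher, and the lower bound of its interval rounded to 0 (0.28, 0.00 to 0.55). It was no longer counted as higher when the libraries were scaled by the median of ratios, where its log2 ratio was 0.27. Sgce, for ε-sarcoglycan, is a homolog of Sgca that is found in many tissues besides striated muscle (ENSMUSG00000004631). It had 68 counts in scKO and 98 in flox/flox, 1.39-fold lower (−0.47, −0.94 to −0.02), and was not counted as lower with total-count scaling. Of the 7 fibro-adipogenic markers, 4 (Pdgfra, Col1a1, Col3a1 and Clec3b) were lower in scKO and 3 were neither; their part in the Sgce value was not tested. Sspn, for the small membrane protein sarcospan, had 1924 counts in scKO and 1821 in flox/flox (0.13, 0.04 to 0.22), a difference outside counting error but under 1.2-fold.

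The largest ratios were found among the adaptor proteins of the inner face. Sntb1 encodes β1-syntrophin, a PDZ-domain adaptor that binds dystrophin and its relatives (ENSMUSG00000060429, chromosome 15, 55636388 to 55906949, minus strand). It had 111 counts in scKO and 59 in flox/flox, or 7.91 and 4.06 CPM, 1.95-fold higher (0.96, 0.49 to 1.44). Its homolog Sntb2, for β2-syntrophin, had 56 and 55 counts in scKO and flox/flox (0.08, −0.49 to 0.64). Relative to Sntb2, Sntb1 was 0.88 higher on the log2 scale in scKO (0.14 to 1.63). Both are low-abundance genes here, and the wide intervals follow from counts of 55 to 111. Of the 7 endothelial markers, 2 (Flt1 and Tek) were higher in scKO and 5 were neither; their part in the Sntb1 value was not tested.

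Nos1 encodes neuronal nitric oxide synthase, the enzyme that syntrophin and dystrophin anchor at the membrane of fast fibres (ENSMUSG00000029361, chromosome 5, 117781032 to 117958840, plus strand). It had 566 counts in scKO and 366 in flox/flox, or 40.4 and 25.2 CPM, 1.60-fold higher (0.68, 0.49 to 0.87). Among the 6936 tested genes with 100 to 1000 summed counts, 9.93% were higher by the same rule. An antisense gene overlaps 2.40% of the Nos1 exon bases but had 0 counts in both libraries.

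The dystrobrevins, dystrophin-related proteins that bind syntrophins, had ratios on opposite sides of 0. Dtna, for α-dystrobrevin, the main form in muscle, had 1279 counts in scKO and 1161 in flox/flox (0.19, 0.08 to 0.31), under 1.2-fold apart. Dtnb, for β-dystrobrevin, which is known mainly from brain and other non-muscle tissues (ENSMUSG00000071454), had 34 counts in scKO and 56 in flox/flox, 1.59-fold lower (−0.66, −1.33 to −0.03). With total-count scaling Dtnb was not counted as lower, and the part of the fibro-adipogenic markers in its value was not tested. Relative to Dtnb, Dtna was 0.86 higher on the log2 scale in scKO (0.21 to 1.53). Cav3, the caveolin of muscle fibres, which binds β-dystroglycan, had 602 counts in scKO and 651 in flox/flox and did not differ beyond counting error (−0.06, −0.22 to 0.10).

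**Figure D2:**
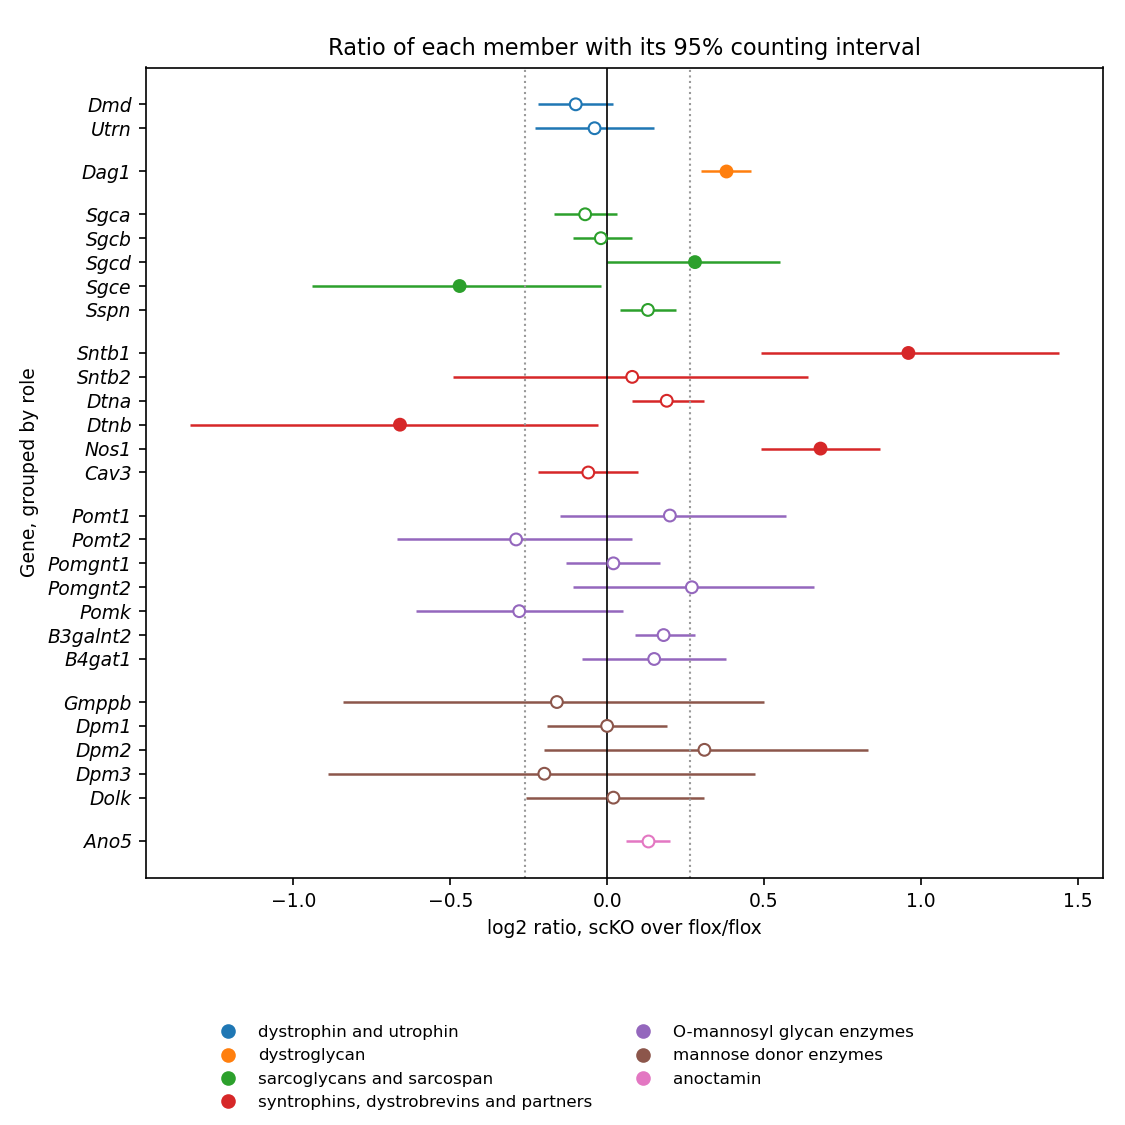
Log2 ratio of scKO over flox/flox for each of the 27 genes, coloured by role, with 95% counting intervals as bars and dotted lines at 1.2-fold; filled points mark the genes counted as higher or lower. Sntb1, Nos1, Dag1 and Sgcd lie to the right, Dtnb and Sgce to the left, and none of the 12 glycosylation genes is filled. Of all tested genes 8.55% were higher and 8.70% lower by the same rule.

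Of the 27 genes, 12 encode enzymes of the dystroglycan sugar chain or its mannose donor, and none of these 12 was counted as higher or lower. Of all 12662 tested genes 8.55% were higher and 8.70% lower. With so few genes the absence of such calls is not read as a result about these enzymes as a group. Pomt1 and Pomt2 encode the partner subunits of the enzyme that attaches the first mannose. Pomt1 had 138 counts in scKO and 124 in flox/flox (0.20, −0.15 to 0.57), and Pomt2 had 111 in scKO and 141 in flox/flox (−0.29, −0.67 to 0.08). Their ratios pointed in opposite directions, but the ratio of Pomt1 to Pomt2 did not differ beyond counting error (0.50, −0.02 to 1.02). Pomt2 and Cipc both lie on chromosome 12 with 141498 bases between their annotated ends, and genes between them were not examined. Of the Pomt2 exon bases 5.85% are shared with Gstz1 on the opposite strand, which had 505 and 531 counts in scKO and flox/flox.

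The 5 enzymes among the 27 genes that modify or extend the mannose had log2 ratios between −0.28 and 0.27. Pomgnt1, which adds N-acetylglucosamine on the branch without laminin-binding sugar, had 735 counts in scKO and 751 in flox/flox (0.02, −0.13 to 0.17). Pomgnt2, which starts the laminin-binding branch with the same sugar, had 126 in scKO and 108 in flox/flox (0.27, −0.11 to 0.66). The next enzyme, B3galnt2, adds N-acetylgalactosamine. It had 1797 counts in scKO and 1638 in flox/flox (0.18, 0.09 to 0.28) and was the 1 glycosylation gene of the 12 whose interval excluded 0. By intervals alone 12.8% of all tested genes were higher and 12.3% lower. Pomk, the kinase that phosphorylates the core mannose, had 139 counts in scKO and 175 in flox/flox (−0.28, −0.61 to 0.05). B4gat1, which primes the chain for its final repeats, had 324 in scKO and 302 in flox/flox (0.15, −0.08 to 0.38). A readthrough gene of the annotation shares 85.3% of the B4gat1 exon bases on the same strand, so these counts may be incomplete.

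The mannose donor enzymes also did not differ beyond counting error. Gmppb makes GDP-mannose, and Dolk makes the dolichol phosphate that carries the sugar. Dpm1, Dpm2 and Dpm3 form the enzyme that joins mannose to it. Dpm1, the catalytic subunit, had 468 counts in scKO and 485 in flox/flox (−0.00, −0.19 to 0.19). Dolk had 206 counts in scKO and 210 in flox/flox (0.02, −0.26 to 0.31). Both ratios were close to 0 with intervals narrow enough to leave out a 1.5-fold difference. Gmppb (37 counts in scKO and 43 in flox/flox) and Dpm3 (36 and 43) had too few counts for that. Their log2 ratios were −0.16 (−0.84 to 0.50) and −0.20 (−0.89 to 0.47). Dpm2 had 72 counts in scKO and 60 in flox/flox (0.31, −0.20 to 0.83). Gmppb lies 151832 bases from Dag1 on chromosome 9, and 33.6% of its exon bases overlap Rnf123 on the opposite strand, which had 1247 counts in scKO and 1548 in flox/flox. Whether the counting used strand is not given, so Gmppb reads cannot be told apart from Rnf123 reads there. Ano5, for an anoctamin of the muscle membrane whose loss causes a limb-girdle dystrophy in humans, had 3256 counts in scKO and 3077 in flox/flox (0.13, 0.06 to 0.20).

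**Figure D3:**
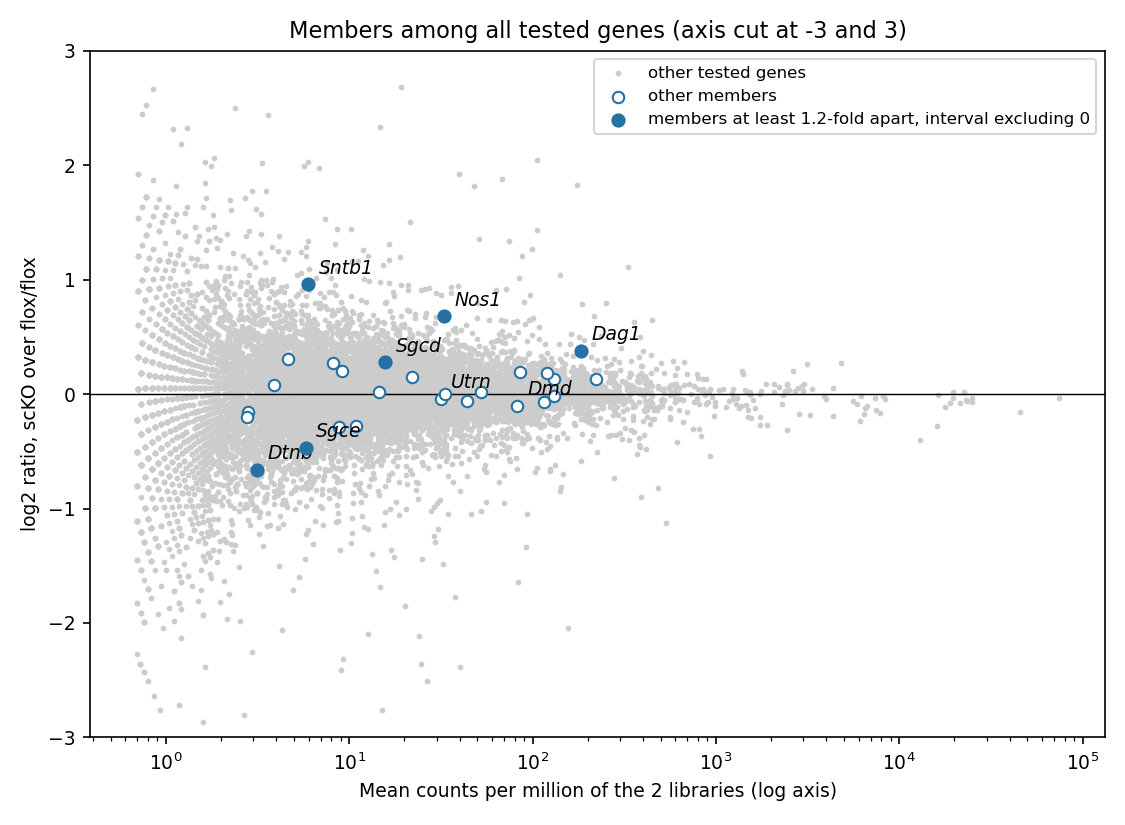
Log2 ratio of scKO over flox/flox against the mean level in CPM (log axis) for all tested genes between −3 and 3 (grey), with the 27 genes in blue; filled points are at least 1.2-fold apart with an interval that excludes 0. The 6 filled points lie inside the spread of the grey points of like level, and the remaining 21 lie between −0.29 and 0.31.

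Levels between genes were compared per length on the authors' FPKM values, which divide fragments by a length for each gene and by library size. α-Sarcoglycan RNA was the most abundant of the 27 on this scale, with 43.1 FPKM in scKO and 44.0 FPKM in flox/flox. Dmd had 2.78 FPKM in scKO and 2.90 FPKM in flox/flox, close to Utrn with 2.55 FPKM in scKO and 2.56 FPKM in flox/flox. The length behind the deposited values was 0.389 to 2.93 times that of the merged exons in GENCODE M21, so the order depends on it. For Dmd the factor was 1.21 and for Utrn 0.724, so the closeness of Dmd and Utrn by FPKM depends on this length too. Sgca, Cav3, Sgcb, Sspn, Ano5, B3galnt2 and Dag1 were among the 9 highest of the 27 in both libraries by FPKM, per merged exon and per principal transcript. By FPKM, Dmd made up 52.2% (49.4 to 55.0) of the Dmd and Utrn total in scKO and 53.2% (50.5 to 55.9) in flox/flox. Per merged exon the share of Dmd was 64.7% in scKO and 65.6% in flox/flox. Per principal transcript it was 67.9% in scKO and 68.8% in flox/flox. On each of these lengths the share was nearly the same in both libraries.

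By point values, the form more abundant by FPKM in the 6 further pairs was the same in both libraries. For the β-syntrophins, the flox/flox interval given below also covered an even split. Sgca made up 99.2% of Sgca and Sgce by FPKM in scKO and 98.9% in flox/flox. Dtna made up 98.9% of both dystrobrevins in scKO and 98.1% in flox/flox. Sgcb made up 93.8% of Sgcb and Sgcd in scKO and 94.9% in flox/flox, or 76.5% in scKO and 79.9% in flox/flox per principal transcript. Pomgnt1 made up 60.5% of Pomgnt1 and Pomgnt2 in scKO and 64.6% in flox/flox. The widest gap between the libraries was that of Sntb1, which made up 68.3% (60.8 to 75.2) of both β-syntrophins in scKO and 53.8% (44.2 to 63.2) in flox/flox. These separate intervals overlap, but the direct comparison of Sntb1 to Sntb2 given above (0.88, 0.14 to 1.63) excluded 0. Pomt1 made up 40.1% of Pomt1 and Pomt2 in scKO and 32.1% in flox/flox by FPKM, but 68.3% in scKO and 60.4% in flox/flox per principal transcript, so which of them is the more abundant is not settled.

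**Figure D4:**
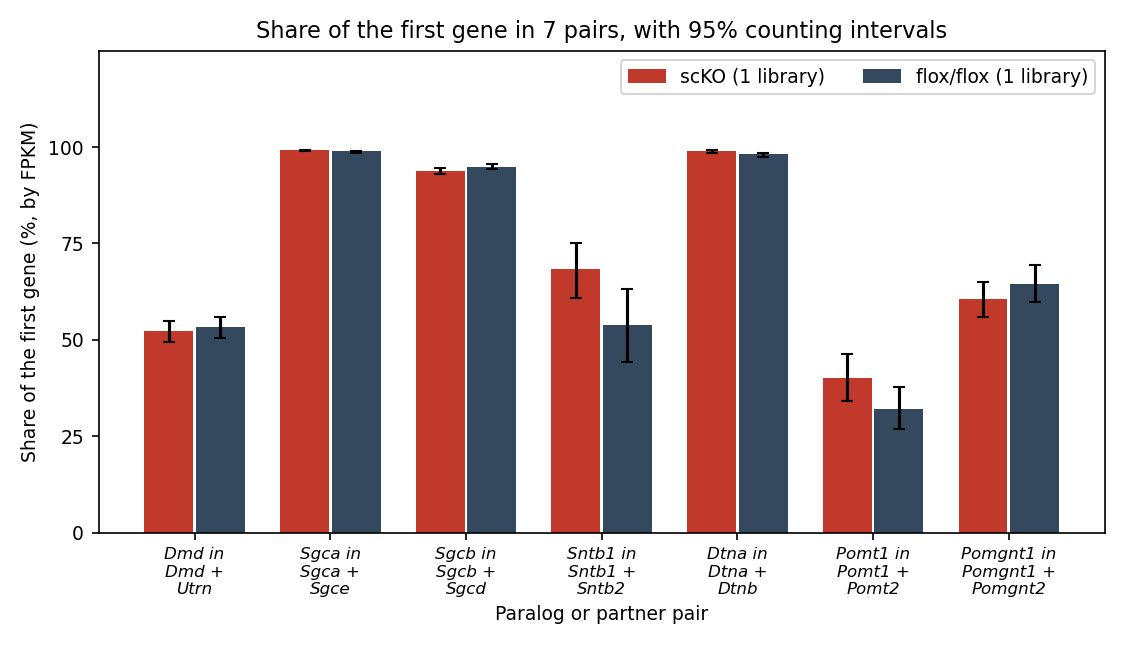
Share of the first gene of each of 7 pairs in the summed FPKM of the pair (percent), in the scKO library (left bars) and the flox/flox library (right bars), with 95% counting intervals. The shares of Dmd nearly coincide at 52.2% and 53.2%, and those of Sntb1 are 68.3% and 53.8%. The separate Sntb1 intervals overlap, while the interval of the direct comparison of Sntb1 to Sntb2 (0.14 to 1.63 on the log2 scale) excludes 0.

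The promoters of the 27 genes were searched for the element CACGTG, the E-box that CLOCK and BMAL1 bind, because Cipc encodes an inhibitor of that pair. RefSeq (GRCm38.p6) gave a promoter for 20 of the genes, and in 6 of these 20 the 250 bases before a start held the element, as they did in 939 of the 9385 tested protein-coding genes and in 6.86% of all 27025 genes with a promoter entry. CACGTG is its own reverse complement, so 1 search covers both strands. The matches with their flanking bases (element in capitals, 5′ to 3′ on the strand of the gene) are shown to let them be compared.
Dolk, chr2:30286375-30286414, minus strand: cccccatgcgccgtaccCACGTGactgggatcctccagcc
Pomt1, chr2:32236414-32236453, plus strand: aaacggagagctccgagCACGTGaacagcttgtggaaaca
Dpm2, chr2:32570818-32570857, plus strand: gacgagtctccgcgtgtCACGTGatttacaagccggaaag
Pomgnt1, chr4:116151240-116151279, plus strand: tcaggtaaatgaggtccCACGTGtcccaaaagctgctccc
Utrn, chr10:12861852-12861891, minus strand: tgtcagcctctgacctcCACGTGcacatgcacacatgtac
Sgcd, chr11:47379547-47379575, minus strand: ttgacaCACGTGtttcccattgatatctg
The element begins 43 bases before the start in Dolk, 209 in Pomt1, 23 in Dpm2, 174 in Pomgnt1, 139 in Utrn and 244 in Sgcd. The starts of Pomgnt1, Utrn and Sgcd used here lie 27591, 7630 and 609644 bases inside the gene as GENCODE M21 draws it, so those windows belong to internal starts. Of the 6 genes, Sgcd alone was counted as higher or lower, and the log2 ratios of the others ran from −0.04 for Utrn to 0.31 for Dpm2. The element CAGCTG, an E-box that the muscle factor MyoD prefers and also its own reverse complement, was found in 1 of the 20 genes, Cav3, against 14.7% of the tested protein-coding genes. A match of letters is a description and not a binding site.

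The wider pathway was followed in a list of 51 further genes, of which 41 had enough counts: other complex subunits, glycan and dolichol enzymes, dystroglycan ligands, costamere linkers, and caveolar and channel partners. Of these 41 genes, 2 were higher in scKO (4.88%) and 5 lower (12.2%), again against 8.55% and 8.70% of all tested genes; with total-count scaling 4 were higher and 3 lower. The median log2 ratio was −0.023. Neither of the 2 tested further complex subunits was counted as higher or lower, and of the 5 tested further enzymes of dystroglycan glycosylation 1 was lower.

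A caveolin gene had the largest ratio of the 41. Cav1, the caveolin of endothelium, fat and other non-muscle cells (ENSMUSG00000007655, chromosome 6, 17306335 to 17341452), had 127 counts in scKO and 570 in flox/flox, or 9.05 and 39.2 CPM, 4.33-fold lower (−2.11, −2.40 to −1.84). Cav2, its partner in the same caveolae, named after its value was seen, had 313 counts in scKO and 351 in flox/flox (−0.11, −0.34 to 0.11). The endothelial markers summed to 264 CPM in scKO and 228 CPM in flox/flox, with 2 of 7 higher and 5 neither. The 4 adipocyte markers summed to 11.0 CPM in scKO and 10.3 CPM in flox/flox. Their counts per gene were low, at 10 to 55 in scKO and 10 to 52 in flox/flox. The part of the endothelial, adipocyte and fibro-adipogenic markers in the Cav1 value was not tested.

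Among the remaining genes counted as higher or lower were 1 of 5 tested dystroglycan ligands, 2 of 12 costamere linkers, both lower, and, with Cav1, 2 of 7 caveolar and channel partners. Aqp4, the water channel that the syntrophin scaffold holds at the membrane of fast fibres, had 662 counts in scKO and 508 in flox/flox, 1.35-fold higher (0.43, 0.26 to 0.60). Flnc, for filamin C, an actin linker that binds sarcoglycans, had 7370 counts in scKO and 10183 in flox/flox, 1.33-fold lower (−0.42, −0.46 to −0.37). Sync, for syncoilin, an intermediate filament protein that binds α-dystrobrevin, had 549 in scKO and 693 in flox/flox (−0.28, −0.45 to −0.12). Egflam, for the dystroglycan ligand pikachurin, had 551 in scKO and 472 in flox/flox, 1.21-fold higher (0.27, 0.09 to 0.45). Dpagt1, which starts the dolichol-linked chain of N-glycans, had 113 counts in scKO and 162 in flox/flox, 1.38-fold lower (−0.47, −0.83 to −0.11).

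**Figure D5:**
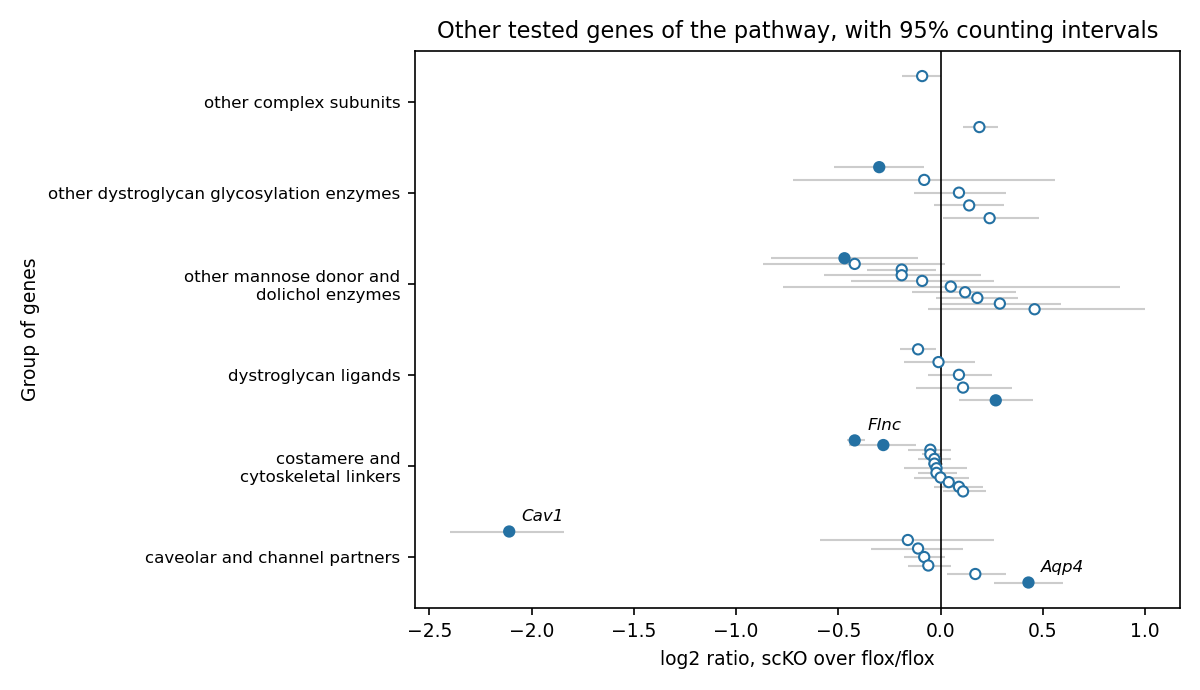
Log2 ratio of scKO over flox/flox for the 41 tested further genes of the pathway by group, with 95% counting intervals; filled points are at least 1.2-fold apart with an interval that excludes 0. Cav1 stands alone at −2.11, Flnc lies at −0.42 and Aqp4 at 0.43, while most points lie near 0.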

How the data were processed

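Whole gastrocnemius RNA was measured in 1 scKO and 1 flox/flox library. The authors deposited whole-number counts per gene and FPKM values. CASAVA, HISAT2 2.0.4, StringTie 1.3.0 and the build GRCm38 are listed in the submitters' processing notes, with no role given. Annotation, counting options, strand and handling of multiple matches are not given in the sources used here. Between libraries, the deposited FPKM equalled counts per total and length to within 0.0198%. Counts were scaled by TMM (edgeR 4.0.16, R 4.3.3). Ratios used a prior count of 0.5 and intervals were exact conditional binomial (Python 3.11.15, scipy 1.17.1). Without replicates the quasi-likelihood test could not be fitted. Symbols were found for 34267 of 34745 identifiers; positions came from GENCODE M21. Members and gene lists were chosen with earlier results of these data known. The 27 genes were all named, and of the 51 further genes those at least 1.2-fold apart with an interval excluding 0; 1 of these is not reported here by name. Alternatives were other scalings, filters, priors, folds and lengths. The intervals hold neither PCR duplication nor variation between animals.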

Additional observations from a re-analysis of the deposited data

How the results depend on the processing

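Among the 27 genes, 135 recomputed log2 ratios (other scalings, the deposited FPKM and a prior count of 5) all lay inside the counting interval of the main value. Rescaling shifts every gene by about the same small amount, and the FPKM ratios nearly repeat those of total counts. The 135 values are therefore not separate checks and do not show that the ratios are stable. The counts of genes moved more. With total counts, and equally with the deposited FPKM ratio, 0 of the 27 genes were lower (Dtnb and Sgce were no longer lower), while 4 of the further genes were higher and 3 lower. Scaling by the median of ratios left out Sgcd. With a minimum of 100 summed counts 1 of the 27 was lower. At a fold of 1.5, 2 of the 27 were higher and 1 lower, 0 of the further genes were higher and 1 lower, and 440 of all genes were higher and 522 lower. At a fold of 2, 0 of the 27 were higher and 0 lower, 0 of the further genes were higher and 1 lower, and 189 of all genes were higher and 242 lower. By the interval alone, 8 of the 27 were higher and 2 lower, and 7 of the further genes were higher and 8 lower. Of all genes 1620 were then higher (12.8%) and 1562 lower (12.3%). The median over the 27 ran between 0.014 and 0.062. With a minimum of 100 summed counts, which 3 of the 27 do not reach, the median over the remaining genes was 0.10. Shares within pairs moved with the length used; the length of the principal transcript was added after seeing the data. No paired analysis was possible because each genotype has 1 library. Depth limits Gmppb, Dpm3, Dpm2, Dtnb, Sntb2 and Sgce, which have under 100 counts in each library. The cause of these shifts was not tested.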
